A study of Homo sapiens with 4 samples.

Results

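YAP, TEAD and Hippo pathway genes were examined in SK-N-BE(2) cells, an established MYCN-amplified human neuroblastoma line, by RNA-seq. The 10 genes were the coactivator genes YAP1 and WWTR1 (which encodes TAZ), the DNA-binding partners TEAD1, TEAD2, TEAD3 and TEAD4, the kinases LATS1 and LATS2, and the target genes CCN1 and CCN2. They were taken by symbol from the 60671 gene IDs of the count table, and 9 of the 10 were among the 16309 genes with enough reads to test. The 10 were proposed with earlier results of the same contrast known, so their levels, fold changes and calls are given below as a description, without a test.

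Cells carried a control short hairpin RNA (shNC, 2 libraries) or a hairpin against METTL14 (shMETTL14, 2 libraries), METTL14 being a subunit of the methyltransferase that writes N6-methyladenosine (m6A) on RNA. All 4 libraries came from the same line. According to the study's methods, hairpins were delivered with a lentiviral vector and cells were selected with puromycin. More than 1 METTL14 hairpin is described there, and the labels do not say which of them these libraries carried. Neither the labels nor the methods say whether replicates were separate infections or cultures, so the spread between them may be technical.

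In the Hippo pathway, the kinases MST1 and MST2 activate LATS1 and LATS2, which phosphorylate YAP and TAZ. Phosphorylated YAP and TAZ are held in the cytoplasm by 14-3-3 proteins or degraded, whereas the unphosphorylated proteins enter the nucleus and activate genes through TEAD proteins. YAP is known to mark mesenchymal-like rather than adrenergic neuroblastoma cells, and its activity is set largely on the protein, which RNA levels do not show.

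TEAD proteins recognise the letters GGAATG, which were searched on both strands of promoter windows reaching from 250 bases before to 50 bases after each RefSeq transcript start (GRCh38.p14). Windows were found for 7 of the 10 genes, and TEAD1, TEAD4 and CCN1 were not matched. The letters occurred in 4928 of 35116 windows (14%) and, among the 7 genes, in the windows of CCN2, YAP1 and LATS2. CCN2 is a classical YAP target and held 3 matches, a number that only 45 of all windows (0.128%) reached. The stretches with the matches are shown 5′ to 3′ on the strand of the gene, with GGAATG in capitals, because they are the places where the target gene, the coactivator gene and the inhibitory kinase gene share a TEAD motif.
CCN2 (GRCh38.p14 chr6:131951403-131951562, minus strand): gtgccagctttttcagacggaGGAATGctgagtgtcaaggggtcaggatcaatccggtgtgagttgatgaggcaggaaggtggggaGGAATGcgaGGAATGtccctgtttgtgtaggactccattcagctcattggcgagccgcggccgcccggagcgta
YAP1 (GRCh38.p14 chr11:102110257-102110326, plus strand): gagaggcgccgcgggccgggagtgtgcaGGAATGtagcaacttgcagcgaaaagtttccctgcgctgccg
LATS2 (GRCh38.p14 chr13:21061560-21061589, minus strand): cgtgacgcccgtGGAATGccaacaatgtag

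Relative to the transcript start, the matches began at bases -169, -104 and -95 in CCN2, at base -162 in YAP1 and at base 10 in LATS2. The AP-1 letters TGANTCA, found in 7.71% of all windows, occurred once, at base -245 of the second LATS1 window. No motif was found in the windows of WWTR1, TEAD2 and TEAD3, and the CArG box of serum response factor was found in none of the 7 genes' windows. A match is a run of letters and not a measured binding site.

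**Figure D1:**
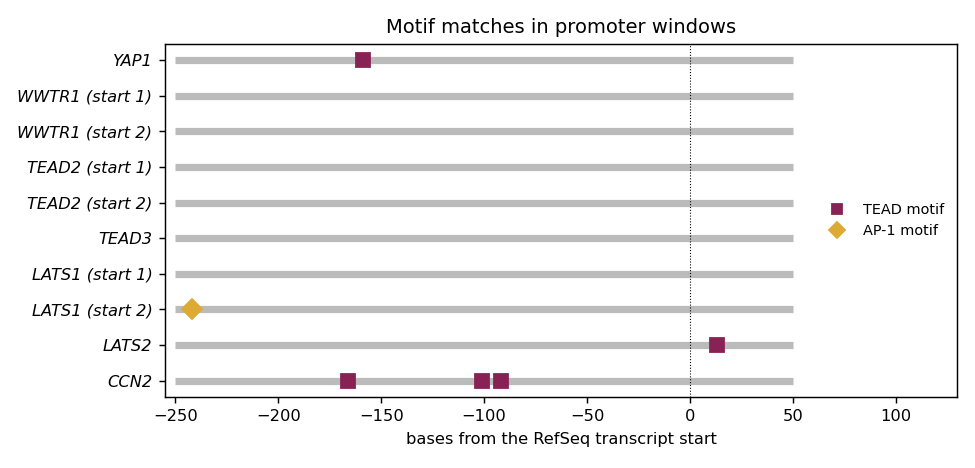
Matches to the TEAD motif GGAATG (squares) and the AP-1 motif TGANTCA (diamond) in the promoter windows of 7 genes; the horizontal axis gives bases from the RefSeq transcript start, each grey bar is 1 window of 300 bases, and genes with 2 windows have 2 bars. CCN2 held 3 TEAD matches, YAP1 and LATS2 held 1 each, and 1 AP-1 match lay in a LATS1 window.

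In the coactivator and TEAD genes, the YAP1 transcript was close to absent in both groups, WWTR1 carried nearly all of the coactivator RNA, TEAD2 was higher and TEAD3 lower in shMETTL14 cells, and TEAD1 and TEAD4 were not called. Levels are TMM-scaled counts relative to library size (CPM), and calls were made where the p-value adjusted over all tested genes was under 0.05. In this contrast 52.5% of all tested genes were called, 27.2% as higher and 25.3% as lower, and 75.5% had groups that did not overlap. Of the 9 tested genes 7 were called, 2 of them higher and 5 lower. Since the genes were chosen from this contrast, nothing is read from that count.

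YAP1 (ENSG00000137693, GRCh38 chr11:102110461-102233423, plus strand) had 16 and 10 counts in the shNC libraries and 6 and 0 in the shMETTL14 libraries. Levels were 0.662 ± 0.198 CPM (SD, n = 2) in shNC and 0.153 ± 0.217 CPM in shMETTL14 cells. Both shMETTL14 libraries lay below both shNC libraries, and the gene passed the filter on low counts through the shNC libraries. The fitted log2 fold change was -2.06 (SE 0.74), which ranged from -6.70 to -1.09 when 1 library was left out, and the call was lost without shNC library 1 or without shMETTL14 library 2. The summed shMETTL14 reads were 0.232 times the shNC reads per unit of depth (95% exact interval 0.078 to 0.577, counting error only). An antisense gene that overlaps 9.97% of the YAP1 exons had 0 counts in every library.

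WWTR1 (ENSG00000018408, chr3:149517235-149736714, minus strand), the gene of the YAP paralogue TAZ, had 721 and 643 counts in shNC and 563 and 597 in shMETTL14 cells. Its level was 34.9 ± 1.84 CPM in shNC and 29.9 ± 1.60 CPM in shMETTL14 cells, 85.7% of the shNC mean, and the groups did not overlap. The log2 fold change of -0.22 (SE 0.08) was called by edgeR but not by DESeq2, nor without shNC library 1 or shMETTL14 library 1. The antisense gene WWTR1-AS1, which overlaps 9.45% of its exons, had between 9 and 13 counts in each library.

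Of the TEAD genes, which encode the DNA-binding partners, TEAD1 (ENSG00000187079, chr11:12674591-12944483, plus strand) was the most abundant, with 6049 and 5624 counts in shNC and 5562 and 5554 in shMETTL14 cells. Its levels of 299 ± 6.92 and 286 ± 3.19 CPM did not overlap, but the log2 fold change of -0.06 (SE 0.04) was not called. Scaling by the upper quartile or by library size alone gave -0.13 and -0.11, both called lower, in fits that moved the median of all genes by -0.068 and -0.045. TEAD1 therefore depended on the scaling for its call and not for its direction.

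TEAD2 (ENSG00000074219, chr19:49340595-49362457, minus strand) had 957 and 870 counts in shNC and 1260 and 1302 in shMETTL14 cells. Its level was 46.7 ± 1.83 CPM in shNC and 66.0 ± 2.33 CPM in shMETTL14 cells, 141% of the shNC mean. The groups were far apart relative to their spread, and the log2 fold change was 0.50 (SE 0.06). CD37, a gene on the opposite strand that shares 10.7% of the TEAD2 exons, had between 2 and 6 counts in each library.

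TEAD3 (ENSG00000007866, chr6:35473597-35497076, minus strand) went the opposite way, with 345 and 358 counts in shNC and 248 and 220 in shMETTL14 cells. Levels of 18 ± 0.98 and 12 ± 0.873 CPM did not overlap, and the log2 fold change was -0.58 (SE 0.10). TEAD4 (ENSG00000197905, chr12:2959330-3040673, plus strand) had 269 and 257 counts in shNC and 261 and 291 in shMETTL14 cells. Its groups overlapped, at 13.5 ± 0.053 and 14.2 ± 1.27 CPM, and the log2 fold change of 0.08 (SE 0.11) was not called and turned to -0.0052 without shMETTL14 library 2.

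The LATS kinases phosphorylate YAP and TAZ, and LATS2 is itself a YAP target. LATS1 (ENSG00000131023, chr6:149658153-149718256, minus strand) had 1271 and 1199 counts in shNC and 1013 and 1143 in shMETTL14 cells, or 63.2 ± 0.815 and 55.6 ± 5.41 CPM. The groups did not overlap, although shMETTL14 library 2 lay close to the shNC libraries at 59.4 CPM. The log2 fold change was -0.19 (SE 0.06), and the call was lost with DESeq2 and without shMETTL14 library 1, where it was -0.086.

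LATS2 (ENSG00000150457, chr13:20973032-21061547, minus strand) had 48 and 28 counts in shNC and 16 and 13 in shMETTL14 cells, or 1.94 ± 0.669 and 0.746 ± 0.100 CPM. Both shMETTL14 libraries were below both shNC libraries, and the shNC libraries differed widely between themselves. The log2 fold change was -1.37 (SE 0.38), and the summed shMETTL14 reads were 0.384 times those of shNC per unit of depth (95% exact interval 0.241 to 0.596, counting error only). DESeq2 did not call the gene, and without shNC library 1 the log2 fold change was -0.97 and not called.

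The target genes CCN1 and CCN2 encode secreted matricellular proteins. Their values stood in opposite directions, that of CCN2 on at most 8 counts in a library. CCN1 (ENSG00000142871, chr1:85580761-85583962, plus strand) had 170 and 138 counts in shNC and 323 and 359 in shMETTL14 cells. Its level was 7.87 ± 0.935 CPM in shNC and 17.6 ± 1.53 CPM in shMETTL14 cells, 223% of the shNC mean, with no overlap. The log2 fold change was 1.16 (SE 0.12), between 1.05 and 1.28 when 1 library was left out, and 2.20% of all tested genes had a higher one.

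CCN2 (ENSG00000118523, chr6:131948176-131951373, minus strand) had 8 and 7 counts in shNC and 3 and 2 in shMETTL14 cells and was too low to test. With no filter on low counts, edgeR gave CCN2 a log2 fold change of -1.52 that was not called (adjusted p = 0.24). The summed shMETTL14 reads were 0.336 times the shNC reads per unit of depth, with a 95% exact interval of 0.095 to 0.971 that covers counting error only. The gene whose promoter window held 3 TEAD motifs was thus near the limit of detection in both groups.

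**Figure D2:**
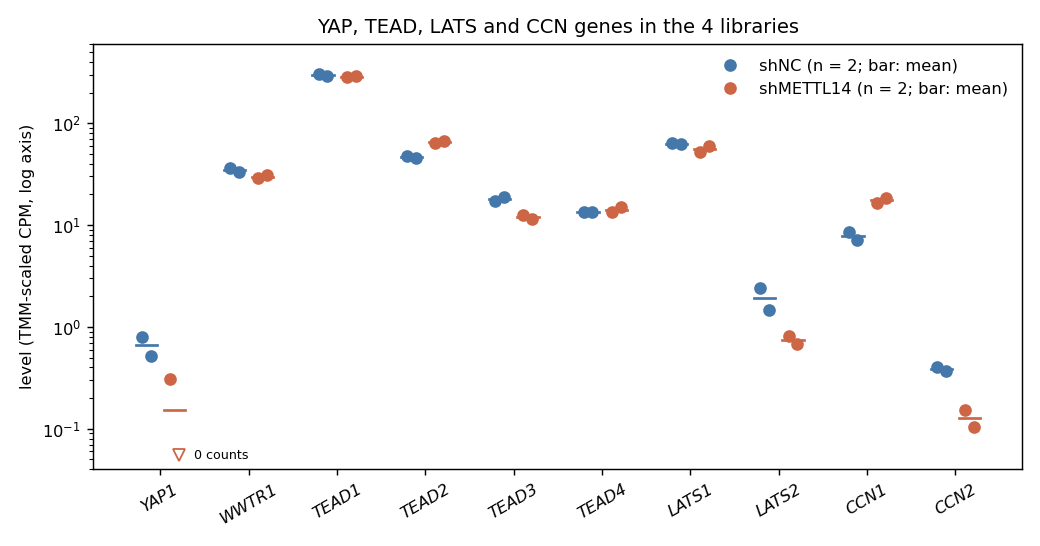
Level of the 10 genes in each of the 4 libraries, as TMM-scaled CPM on a log axis; points are libraries, bars are group means (n = 2), and the open triangle marks the shMETTL14 library with 0 YAP1 counts. TEAD2 and CCN1 lay higher and YAP1, WWTR1, TEAD3, LATS1, LATS2 and CCN2 lower in both shMETTL14 libraries, TEAD1 was lower by little, and TEAD4 overlapped.

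Per kilobase of exon (RPKM, from TMM-scaled CPM), the order of levels in shNC cells was TEAD1 at 29 ± 0.673, TEAD2 at 15.7 ± 0.612, LATS1 at 7.31 ± 0.094, TEAD4 at 5.92 ± 0.023, TEAD3 at 5.91 ± 0.322, WWTR1 at 4.15 ± 0.218, CCN1 at 3.20 ± 0.381, LATS2 at 0.347 ± 0.12, CCN2 at 0.164 ± 0.011 and YAP1 at 0.105 ± 0.032 RPKM. TEAD4 and TEAD3 were the neighbours whose values overlapped. The median tested gene stood at 4.14 RPKM, next to WWTR1, whereas 98.4% of tested genes were above YAP1 and 8.59% were above TEAD1. In shMETTL14 cells CCN1 moved past WWTR1, TEAD3, TEAD4 and LATS1 to the third place with 7.16 ± 0.621 RPKM. There CCN1 overlapped LATS1 at 6.43 ± 0.626 RPKM, LATS1 overlapped TEAD4 at 6.26 ± 0.557 RPKM, and CCN2 overlapped YAP1.

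Within the TEAD family, TEAD1 gave 51.4 ± 0.294% of the summed RPKM in shNC and 46.3 ± 0.532% in shMETTL14 cells, while TEAD2 went from 27.7 ± 0.599% to 36.8 ± 0.467%. TEAD3 went from 10.5 ± 0.752% to 6.58 ± 0.625%, and TEAD4 stood at 10.5 ± 0.142% and 10.4 ± 0.690%. The family sum was 56.6 ± 0.987 RPKM in shNC and 60.2 ± 1.36 RPKM in shMETTL14 cells, so the mix of members differed more than the total. These shares rest on division by exon length, without which TEAD1 held 79.2% of the shNC reads of the family.

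Of the coactivator RNA, YAP1 held 2.88% and 2.04% in the shNC libraries and 1.40% and 0% in the shMETTL14 libraries, the rest being WWTR1. LATS2 held 5.53% and 3.49% of the LATS RNA in shNC and 2.39% and 1.73% in shMETTL14 cells, so LATS1 was the main LATS transcript of this line in both groups. CCN2 held 4.88 ± 0.246% of the summed CCN1 and CCN2 level in shNC and 0.773 ± 0.272% in shMETTL14 cells. That share rests on 8 and 7 CCN2 counts in shNC and 3 and 2 in shMETTL14 cells, so its SDs may understate the counting error. It also falls where CCN1 rises, and CCN1 was at 223% of its shNC mean in shMETTL14 cells.

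**Figure D3:**
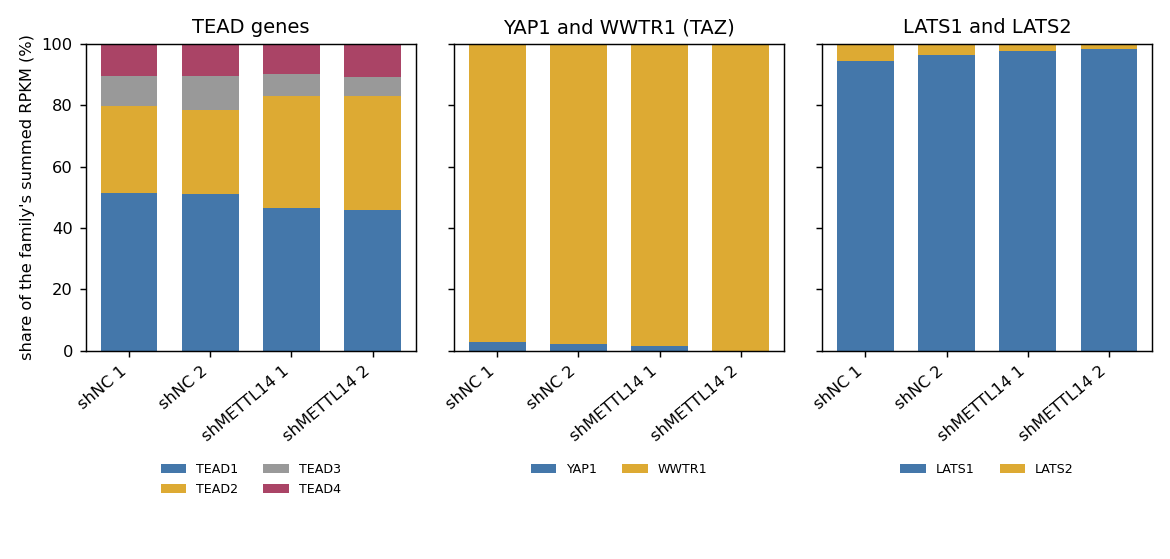
Share of each gene in its family's summed RPKM (vertical axis, percent) in each of the 4 libraries, for the TEAD genes, YAP1 with WWTR1, and LATS1 with LATS2. TEAD2 took 27.7% of the TEAD level in shNC and 36.8% in shMETTL14 cells, and WWTR1 and LATS1 made up nearly all of their families.

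The median log2 fold change of the 9 tested genes was -0.19 and that of all 16309 tested genes was -0.00095. Since the genes were chosen from this contrast, nothing is read from the difference. YAP1, which passed the filter through its higher group, is among the 9. The median of the genes tested was -0.086 without shMETTL14 library 1, -0.27 without shMETTL14 library 2 and -0.25 with upper quartile scaling. The genes with the widest errors, YAP1 and LATS2, were the tested members with the lowest levels.

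**Figure D4:**
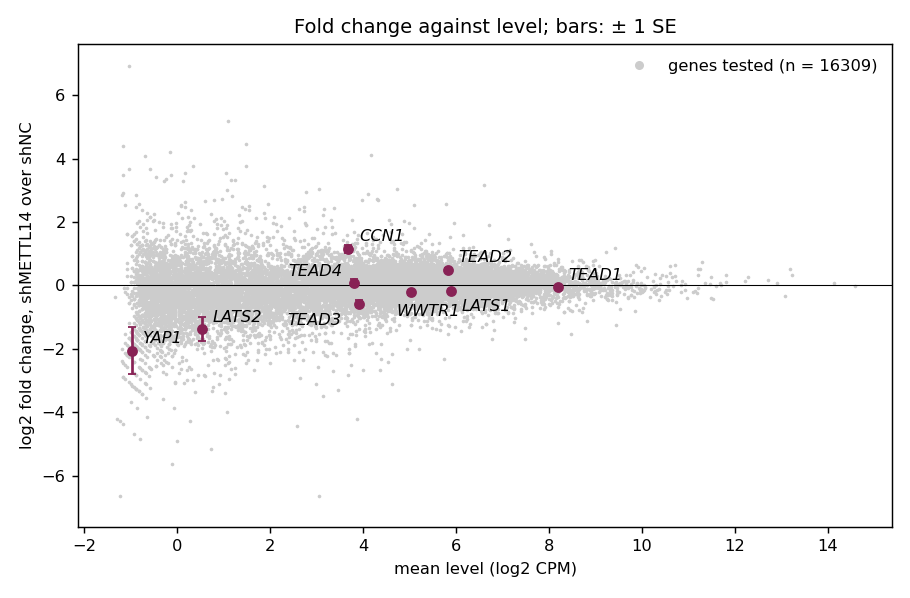
Fitted log2 fold change of shMETTL14 over shNC (vertical axis) against mean level in log2 CPM (horizontal axis) for 16309 tested genes (grey) and the 9 tested pathway genes (coloured, bars ± 1 SE). CCN1 at 1.16 and TEAD2 at 0.50 lay above 0, and YAP1 and LATS2 lay lowest, at -2.06 and -1.37, with the widest bars.

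Beyond these 10 genes, 91 other genes of the pathway were grouped by role. Of these 74 were tested, 30 rose and 26 fell (edgeR, adjusted over all genes), and their median log2 fold change was 0.04. Of the 74 tested genes 56 were called, against 52.5% of all tested genes. The lists were written with earlier results of these data known, so nothing is read from that share or from the counts of each list below.

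Among 24 kinases and activators upstream of YAP and TAZ, all of which were tested, 7 rose and 13 fell, with a median of -0.18 that was -0.096 without shNC library 1. The MST kinases both fell: STK4, which encodes MST1, had 1214 and 1150 counts in shNC and 918 and 834 in shMETTL14 cells (log2 fold change -0.42, SE 0.06, adjusted p = 4.6e-06). STK3, which encodes MST2, had 366 and 354 counts in shNC and 276 and 243 in shMETTL14 cells (-0.46, SE 0.10, adjusted p = 0.00053), and their scaffold SAV1 fell by 0.24 (adjusted p = 0.012). The LATS cofactors went the other way, MOB1A rising by 0.27 (adjusted p = 4.8e-05) and MOB1B by 0.21 (adjusted p = 0.0026), as did the membrane-linked activator NF2, by 0.40 (adjusted p = 5.5e-06).

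The largest changes of this list were falls. WWC3, a KIBRA-family activator of LATS, had 150 and 158 counts in shNC and 41 and 57 in shMETTL14 cells (log2 fold change -1.64, SE 0.19, adjusted p = 2.5e-07). TNIK, a kinase of the MAP4K family, fell by 1.27 (adjusted p = 1.3e-09), and PTPN14, a phosphatase that binds YAP, fell by 1.05 (adjusted p = 3.8e-07). WWC1, which encodes KIBRA, fell by 0.57 with 96 and 91 counts in shNC and 44 and 81 in shMETTL14 cells (adjusted p = 0.044). The number called in this list was 20 with edgeR, 11 with DESeq2 and 12 without shNC library 1, in fits that called 52.5%, 33.9% and 44.0% of all tested genes.

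Of 13 genes of the STRIPAK phosphatase complex and the LIM domain proteins, both known to restrain the Hippo kinases, 12 were tested, 4 rose and 3 fell, with a median of 0.04 that turned to -0.02 with upper quartile scaling and to -0.00097 with library size alone. The striatin-interacting gene STRIP2 rose from 86 and 90 to 170 and 180 counts (log2 fold change 1.00, SE 0.15, adjusted p = 1e-05), and PDCD10 rose by 0.51 (adjusted p = 7.1e-07). The striatin scaffolds split, STRN falling by 0.50 (adjusted p = 3.3e-08) and STRN4 rising by 0.46 (adjusted p = 1.3e-05).

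Of 18 junction and polarity genes 12 were tested, 6 rose and 5 fell, with a median of 0.16 that was 0.096 with upper quartile scaling. It was 0.061 both with DESeq2 and with no filter on low counts, but those medians also took in the genes of the list too low to test. The giant cadherins showed both directions. FAT3 fell from 290 and 303 counts to 76 and 51 (log2 fold change -2.21, SE 0.16, adjusted p = 1e-10), while FAT4 rose from 159 and 157 to 268 and 271 counts (0.78, SE 0.12, adjusted p = 8.1e-06). DCHS1, the ligand of FAT4, fell by 0.63 (adjusted p = 1.1e-07) and shares 7.62% of its exon bases with an antisense gene, and PALS1, a polarity scaffold, fell by 0.58 (adjusted p = 4.3e-07).

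Of 11 genes that retain YAP in the cytoplasm or direct its turnover, 10 were tested, 8 rose and 1 fell, with a median of 0.23. That median was 0.16 with upper quartile scaling and 0.18 with library size alone. The 14-3-3 genes YWHAB, YWHAG and YWHAH rose by 0.44, 0.42 and 0.41 (adjusted p = 5e-09, 8e-09 and 1.8e-07), and CSNK1E, a casein kinase that takes part in YAP degradation, rose by 0.35 (adjusted p = 4.1e-06). Of the other 14-3-3 genes, YWHAZ rose by 0.22 and YWHAQ by 0.11 (adjusted p = 4.1e-05 and 0.012). YWHAE, at -0.09, was not called (adjusted p = 0.057), and SFN was too low to test. BTRC, a ubiquitin ligase subunit, was the gene that fell, by 0.21 (adjusted p = 0.021), while FBXW11 of the same list rose by 0.24 (adjusted p = 0.00018). These further genes are named after their values were seen. The study picked YWHAH by comparing these same libraries with its m6A sequencing, so the value here is not independent evidence of a direction. Apart from sequencing, it also reported more YWHAH RNA and protein after METTL14 knockdown. VGLL4, which competes with YAP for TEAD, was the tested gene of 4 VGLL cofactors and fell by 0.51 (SE 0.05, adjusted p = 1.6e-08), and VGLL1, VGLL2 and VGLL3 had 0 counts in every library. Several named genes share exon bases with another gene and are uncertain to that extent: VGLL4 shares 22.1% with ATG7 and SAV1 14.9% with ATL1 on the opposite strand, and CSNK1E shares 21.1% with the readthrough gene TPTEP2-CSNK1E on its own strand. Of the signature genes described next, TGFB2 shares 26.6% with TGFB2-OT1 on its own strand, and ARHGEF17, PTPN14 and RBMS3 share 9.75%, 6.47% and 5.61% with other genes.

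Of 19 genes in a common YAP and TAZ target signature, not counting LATS2, CCN1 and CCN2, 17 were tested, 6 rose and 4 fell, with a median of -0.06. Over all tested genes 27.2% were called higher and 25.3% lower, so nothing particular to the signature is read from this split. Scaling by library size alone gave a median of -0.10 and upper quartile scaling one of -0.12. It was -0.02 without shNC library 2 and -0.04 without shMETTL14 library 2, and it turned to 0.0037 with a minimum of 10 counts in every library, which left fewer of these genes tested. AMOTL2 also belongs to the junction and polarity genes above and PTPN14 to the kinases and activators, so their calls are counted in both lists. AMOTL2, an angiomotin that binds YAP, rose from 36 and 29 to 103 and 82 counts (log2 fold change 1.51, SE 0.24, adjusted p = 1.6e-05). FJX1, a relative of the fly gene four-jointed, rose from 303 and 271 to 684 and 718 counts (1.3, SE 0.09, adjusted p = 4.4e-11), and the growth factor binding gene IGFBP3 rose by 1.15 (adjusted p = 1e-06). CCDC80, a matrix gene, rose by 0.65 (adjusted p = 1.4e-10), the stress gene GADD45A by 0.33 (adjusted p = 0.00045) and the muscle ankyrin repeat gene ANKRD1 by 1.07 (12 and 9 against 18 and 26 counts, adjusted p = 0.048). ANKRD1 passed the filter on low counts through the shMETTL14 libraries, where it was higher.

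The falling signature genes were the kinase gene NUAK2, from 15 and 20 to 7 and 3 counts (log2 fold change -1.77, SE 0.55, adjusted p = 0.01), PTPN14, RBMS3 by 0.34 (adjusted p = 5.9e-06) and ASAP1 by 0.15 (adjusted p = 0.0042). NUAK2 passed the filter on low counts through the shNC libraries, where it was higher, so the calls of NUAK2 and ANKRD1 do not support the count of either direction. The receptor gene AXL had a log2 fold change of -0.82 (adjusted p = 0.064), F3 -0.55 (adjusted p = 0.2), CRIM1 -0.24 (adjusted p = 0.71) and TGFB2 0.36 (adjusted p = 0.098). NT5E at -0.06, DOCK5 at -0.06 and ARHGEF17 at 0.10 had adjusted p-values of 0.36, 0.37 and 0.12. MYOF and FOXF2 were too low to test. The TEAD letters GGAATG were found for 9 of the 16 signature genes with a promoter window, CCN2 and LATS2 included (56.2%), and for 16.7% of 27305 genes of the table. The signature lists YAP and TAZ targets, so its share of TEAD letters may come from how it was made and is no result of these data. The letters were found for AMOTL2 and ANKRD1, called higher, and for PTPN14, NUAK2 and LATS2, called lower. They were also found for AXL and TGFB2, not called, and for CCN2 and FOXF2, not tested.

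**Figure D5:**
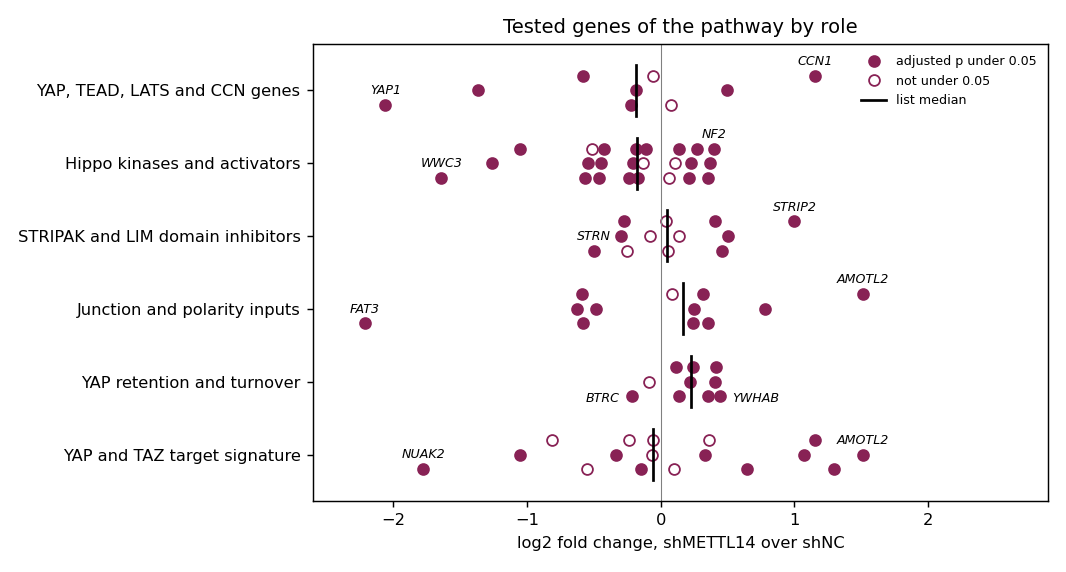
Log2 fold change of shMETTL14 over shNC (horizontal axis) for tested genes in 6 role groups; each point is a gene, filled where the adjusted p was under 0.05, and the black line is the list median. The YAP retention and turnover genes lay mostly above 0 with a median of 0.23, and the target signature (here without LATS2, CCN1 and CCN2) spread from -1.77 to 1.51.

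Since METTL14 acts in the writing of m6A, the letters GGACT, a common form of the m6A consensus, were counted in the longest coding transcript of each of the 10 genes (GENCODE 29). CCN1 held 5 (2.18 per kilobase), more per kilobase than all but 5.74% of the tested coding genes, while CCN2 held 0. LATS1 and LATS2 each held 8 (1.06 and 1.45 per kilobase) and YAP1 held 4 (0.741 per kilobase), against a median of 0.926 per kilobase over 12788 tested coding genes. WWTR1, TEAD1 and TEAD2 stood below that median, at 0.596, 0.59 and 0.82 per kilobase, and TEAD3 and TEAD4 above it, at 1.01 and 1.18. Genes called higher and genes called lower lay on both sides of the median, and a relation between letter counts and direction was not tested. These are letter counts, and m6A itself was not analysed here.

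For the series as a whole, gene counts ran from 18925786 to 19886214 per library, and METTL14 had 753 and 754 counts in shNC and 303 and 321 in shMETTL14 cells (log2 fold change -1.26, SE 0.08). The 9 noradrenergic markers of neuroblastoma cells were all present, summing to between 4987 and 5047 CPM in shNC and between 5202 and 5269 CPM in shMETTL14 cells. MYCN, which was called higher, gave more of that sum than any other marker, at mean levels of 2616 CPM in shNC and 3173 CPM in shMETTL14 cells. The higher sum therefore does not describe the list, most of which was called lower. The 10 mesenchymal markers, which include YAP1 and AXL, summed to between 2562 and 2630 CPM in shNC and between 2621 and 2683 CPM in shMETTL14 cells, with PRRX1 at 3 counts or fewer in every library. Most of the mesenchymal sum was VIM, at mean levels of 1937 CPM in shNC and 1980 CPM in shMETTL14 cells. Of the 9 noradrenergic markers 2 were called higher and 6 lower, and of the 8 tested mesenchymal markers other than YAP1 2 were called higher and 2 lower. The 7 fibroblast markers summed to between 454 and 457 CPM in shNC and between 416 and 426 CPM in shMETTL14 cells. LUM gave more of that sum than any other marker, at mean levels of 238 and 247 CPM, and the single markers differed more than the sum: 4 of the 7 were called lower and 1 higher. PDGFRA had mean levels of 16.5 and 3.77 CPM (log2 fold change -2.13), COL3A1 -0.78, COL1A1 -0.48 and PDGFRB -0.19 as log2 fold changes, and COL1A2 1.83 on 2 and 6 against 11 and 18 counts, which passed the filter through the shMETTL14 libraries. These markers are named after their values were seen. The part of these marker levels in the pathway results was not tested, and in bulk RNA fewer cells of a type and less RNA per cell cannot be told apart.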

How the data were processed

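RNA-seq was performed on 2 shNC and 2 shMETTL14 libraries of SK-N-BE(2) cells. The authors deposited raw counts per Ensembl gene ID. The submitters' processing notes name HISAT2 2.1.0, StringTie 1.3.6, HTSeq 0.13.5, edgeR and the GRCh38 (hg38) build. The annotation release and strand setting were not given in the sources used here, so reads of overlapping genes on opposite strands could not be told apart. Lines naming no gene (19.1% to 19.9% of counts) were left out.

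Counts were tested with edgeR 4.0.16 (R 4.3.3) using its quasi-likelihood F-test after TMM scaling, filterByExpr (minimum count 10, total 15), group as the only term and Benjamini-Hochberg adjustment over 16309 genes, with calls at 0.05. The procedure was also run on simulated counts in which few genes changed and all genes shared the same dispersion (spread between replicates). Since 52.5% of tested genes were called in these data, that run does not check the calls given here. CPM were TMM-scaled, and RPKM used merged exon length in GENCODE 29 on GRCh38. With 2 libraries per group, calls rest on the variance model shared across genes, and p-values measure only the spread between these samples. Replicates differed beyond counting noise (chi-square per gene 2.16 and 1.88). The alternatives were DESeq2 1.42.0, other scalings and filters, a replicate block and leaving out each library.

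The 10 genes, the pathway lists and the tests were chosen with earlier results of these data known. Named besides the 10 were all target signature genes, the core kinase module and, of each list, the 4 called genes with the largest fold changes among those with mean log2 CPM of at least 2 and groups that did not overlap. Promoter windows are from RefSeq (GRCh38.p14).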

Additional observations from a re-analysis of the deposited data

How the results depend on the processing

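TEAD2, TEAD3 and CCN1 kept their direction and call under every alternative run. DESeq2 called 5556 genes (33.9%) against 8561 (52.5%) with edgeR. Under DESeq2, WWTR1 (-0.22), LATS1 (-0.18) and LATS2 (-1.37) were no longer called, YAP1 had no adjusted p, 3 of the 10 genes were called against 7, and 11 Hippo kinases and activators against 20. TEAD1 was called lower with upper quartile scaling (-0.13) and with library size alone (-0.11). Of all calls, 51.8% were higher with TMM, 41.7% with upper quartile scaling and 44.9% with library size alone. With 1 library left out in turn, the log2 fold change ranged from -6.70 to -1.09 for YAP1, from -0.27 to -0.17 for WWTR1, from -0.28 to -0.086 for LATS1, from -1.68 to -0.97 for LATS2 and from -0.0052 to 0.17 for TEAD4, which reversed without shMETTL14 library 2. The 10 genes then had 4 to 7 calls and the Hippo kinases and activators 12 to 20, in fits that called 42.5% to 44.0% of all genes. In these fits the lone library of a group is assumed to vary like the other group. A minimum of 10 counts in every library left YAP1 untested. TEAD1's share of the TEAD level was 79.2% when not divided by length, an alternative chosen after seeing the data. The cause of these changes was not tested. Same-numbered libraries share only a number (correlation of their deviations -0.0018 over 2 pairs), and a replicate block moved YAP1 to -2.12 and LATS2 to -1.35, changed no call of the 10 genes and called 8926 genes in all. Depth limits YAP1 and CCN2, with at most 16 counts in a library.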
